A study of Mus musculus with 62 samples.

Results

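The genes described here are 43 chaperone and co-chaperone genes, chosen by gene name from the 56415 genes of the count tables. They comprise 4 genes of the HSP90 family, 11 of the HSP70 and HSP110 family, 12 of the DNAJ (HSP40) family, 7 subunits of the cytosolic chaperonin CCT (also called TRiC), the mitochondrial HSP60 and HSP10 genes (2), 2 small heat shock proteins, and 5 co-chaperone or regulator genes. All 43 passed the filter on low counts in every comparison. Most of the encoded proteins act in the cytosol or in mitochondria, but Hsp90b1 encodes GRP94 of the endoplasmic reticulum (ER) lumen, Hspa13 encodes a microsomal protein, and Hsf1 encodes a transcription factor rather than a chaperone.

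RNA was sequenced from 5 brain regions of adult male C57BL/6J mice aged 8 to 10 weeks: cortex, the dorsal (dHPC) and ventral (vHPC) hippocampus, and the dorsal (DS) and ventral (VS) striatum. Mice of the acute ethanol groups received 2 g/kg ethanol as a 20% solution in saline by intraperitoneal injection on 1 day, and mice of the acute saline groups received the same volume of saline. The chronic ethanol and chronic saline groups received the same injections daily for 10 days, so every control animal was also handled and injected. Tissue was taken 4 h after the last injection, from 3 to 4 mice per group in each region and 16 mice in all, giving 62 libraries with 8149628 to 71164766 counted read pairs. A mouse contributed to several regions, so that regions are not independent of each other, and only males of 1 strain at 1 time point were studied.

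The cortex and dHPC libraries were prepared with a non-directional kit and held 43173748 to 71164766 counts, whereas the vHPC, DS and VS libraries were prepared with a directional kit and held 8149628 to 46564992. The 2 sets also differed in sequencer and read length. Levels in cortex or dHPC therefore cannot be told apart from the kit, sequencer and read length when set against those in vHPC, DS or VS. Every test below compared mice within 1 region. Dorsal striatum chronic saline replicate 2 had 0 counts on chromosomes 7, 8, 9, X, Y and the mitochondrial genome, and for every gene of chromosome 6 that starts after position 22875501 (GRCm39). It was thus at 0 for 7 of the 43 genes (Cct7 on chromosome 6, and Bag3, Chordc1, Dnaja2, Dnaja4, Dnajb1 and Hspa8), and was left out of the DS chronic and interaction tests, which leaves 2 chronic saline mice there. Markers of striatal and pallial neurons separated the striatal regions from cortex. Summed over 12 genes of striatal projection neurons, levels were 5134 to 10275 CPM (a gene's counts scaled to a common library size) in DS. They were 3216 to 7079 CPM in VS and 386 to 507 in cortex. The 9 genes of pallial excitatory neurons summed to 5103 to 6317 CPM in cortex, against 1351 to 2189 in DS and 1142 to 2523 in VS. They overlapped cortex in dHPC (4256 to 6127) and vHPC (4254 to 7886), and so did not separate cortex from hippocampus. Hippocampal markers separated the regions less clearly. The 6 genes of dentate granule neurons summed to 373 to 824 CPM in dHPC and 211 to 1046 in vHPC, which overlapped cortex (179 to 293) and DS (183 to 332). The 6 genes of hippocampal pyramidal neurons summed to 269 to 728 CPM in VS, which overlapped dHPC (382 to 666). Striatal markers nevertheless reached 3260 CPM in 1 dHPC library, within the range of VS, and 1744 CPM in 1 vHPC library. The 10 genes of the choroid plexus varied between libraries, from 26.9 to 3268 CPM in vHPC, 22.8 to 7360 in DS, 25.7 to 3069 in VS, 35.0 to 4152 in dHPC and 5.98 to 129.9 in cortex.

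Chaperones bind unfolded or partly folded proteins and keep them from aggregating. HSP70 proteins take up short exposed stretches of a client, DNAJ proteins deliver clients and stimulate the HSP70 ATPase, HSP110 proteins exchange the nucleotide, and HSP90 completes the maturation of clients such as kinases and steroid receptors; CCT folds actin and tubulin inside a closed chamber. In neurons the constitutive members also serve synapses, where HSC70 (Hspa8) uncoats clathrin-coated vesicles, while the inducible members are transcribed by HSF1 after heat, ethanol and other protein-damaging stress.

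Constitutive genes made up most of the chaperone mRNA in every region. With CPM divided by the summed exon length in kilobases, Hsp90ab1 (constitutive cytosolic HSP90), Hspa8 and Hsp90aa1 (the inducible cytosolic HSP90, which neurons also express constitutively) ranked 1 to 3 among the 43 genes in all 5 regions. Their median levels in the cortex were 448, 412 and 233 CPM per kb. In DS they were 401, 320 and 204 CPM per kb. Bag3, a co-chaperone that directs HSP70 clients to autophagy, ranked 43rd in every region, with a median of 2.25 CPM per kb in the cortex and 3.31 in vHPC. Hspa1a, which encodes the classical stress-inducible HSP70, had a median of 12.2 CPM per kb in vHPC, 4.5 in VS and 3.32 in DS, which share a kit, and 14.4 in the cortex and 13.9 in dHPC, which share the other. The lowest count of any of these genes in a complete library was 28 read pairs, for Hspb1 (HSP27), so that only the scarcest members were limited by counting error.

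The promoters shown are ones that hold the heat shock element, the inverted repeats of GAA that HSF1 binds, and were chosen for that and not for their results. In RefSeq promoters of GRCm38.p6 (250 bases before to 50 after the start), 35 of the 43 genes had an entry; Hsp90aa1, Hsp90ab1, Hspa8, Hspa9, Hspa13, Dnajc5, Cct4 and Hsf1 had none. An element of 3 such units, alternately GAA and TTC with NN between them and starting with either, searched on both strands, was in 5 of them (Chordc1, Dnajb6, Hspd1, Hspe1 and Hsph1) and at 179 of all 27025 genes with an entry (0.662%). Hspd1 and Hspe1 lie head to head and share theirs. The stretches are given 5′ to 3′ on the strand of the gene, with the repeats in capitals: Hspe1 at chr1:55088043-55088102 (plus), Dnajb6 at chr5:29735823-29735882 (plus), Chordc1 at chr9:18292232-18292291 (plus) and Hsph1 at chr5:149636286-149636340 (minus), all GRCm38.p6.
Hspe1: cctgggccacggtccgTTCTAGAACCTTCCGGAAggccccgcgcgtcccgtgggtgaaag
Dnajb6: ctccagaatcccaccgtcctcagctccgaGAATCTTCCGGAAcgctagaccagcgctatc
Chordc1: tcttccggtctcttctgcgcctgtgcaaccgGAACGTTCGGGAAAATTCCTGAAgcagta
Hsph1: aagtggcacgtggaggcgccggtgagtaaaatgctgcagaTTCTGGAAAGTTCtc

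The inducible pair and Hspb1 held the shorter element GAANNTTC, which is its own reverse complement, was in 13 of the 35 and at 9.04% of all genes with an entry, and is part of the 3-unit element above. The other 2-unit element, TTCNNGAA, was in 7 of the 35 and at 9.60% of all genes with an entry. Hspa1a and Hspa1b are at chr17:34972222-34972281 and chr17:34959304-34959363 (both minus) and Hspb1 at chr5:135887784-135887843 (plus), GRCm38.p6. The promoters of Hspa1a and Hspa1b differ at 4 of 300 bases, and the stretches shown are identical. Among the genes called by either tool in any test below, Dnajb2, Hspa2, Hspa4l and Hsp90b1 held none of these elements, Dnaja1 held GAANNTTC alone, Dnajb4 held TTCNNGAA alone, and Chordc1 held all of them. A match is a description of these letters and not evidence of binding.
Hspa1a: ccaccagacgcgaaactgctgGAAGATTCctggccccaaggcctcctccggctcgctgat
Hspa1b: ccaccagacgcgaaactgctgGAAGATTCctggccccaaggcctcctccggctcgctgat
Hspb1: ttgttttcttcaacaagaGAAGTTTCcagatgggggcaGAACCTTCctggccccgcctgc

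Each gene was tested for ethanol against saline with edgeR's quasi-likelihood test in 10 comparisons, and for a difference between the chronic and the acute effect in 5 interaction tests, with a false discovery rate (FDR) of 0.1 over all genes tested. Of the 43 genes, 3 fell in DS after acute ethanol, where 5.15% of the 20495 genes tested were called (3.10% lower). In the other 14 tests edgeR called none of the 43. The share of all genes called in these tests was 1.99% in cortex acute, 0.0420% in dHPC acute, 0.0399% in VS acute, 0.0555% in vHPC chronic, and 0% in vHPC acute, in the other 4 chronic comparisons and in the 5 interactions.

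DESeq2, the tool of the study, called 4 of the 43 lower in DS acute. There 8.14% of the 16123 genes that DESeq2 tested were called (4.71% lower), where edgeR tested 20495. Both tools were given the same genes. The genes that DESeq2 tested are here those left with an adjusted p after its own filtering, which were fewer than in edgeR. Shares for DESeq2 are of these genes. DESeq2 called 1 higher and 4 lower in vHPC acute, where 4.46% of 12963 genes were called (2.58% higher and 1.88% lower). In the vHPC interaction it called 5 with a positive term, where 4.62% of 9023 genes were called (1.51% positive). For that interaction edgeR tested 20618 genes. In the other 12 tests DESeq2 called 0 of the 43, with shares of the genes it tested of 5.21%, 1.60% and 0.943% for cortex, dHPC and VS acute. The shares were 0.835%, 1.25%, 1.17%, 0.878% and 2.46% for the chronic comparisons in the order cortex, dHPC, vHPC, DS and VS. For the interactions of cortex, dHPC, DS and VS they were 0.0840%, 0.00745%, 0.0190% and 0.0191%. In a whole-tissue library, a lower value can come from fewer cells of a type or from less RNA per cell, and these cannot be told apart.

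At an unadjusted edgeR p below 0.05, without correction, the counts differed between regions and paradigms. After acute ethanol, 2 of the 43 were higher and 15 lower in vHPC (6.25% and 5.67% of all genes), 1 was higher and 11 lower in DS (7.72% and 7.79%), 3 were higher and 0 lower in cortex (5.62% and 6.84%), 1 was higher and 1 lower in dHPC (3.67% and 4.20%), and 2 were higher and 1 lower in VS (3.23% and 4.08%). After chronic ethanol, 7 were higher and 0 lower in cortex (4.31% and 6.04%), 4 and 0 in dHPC (3.47% and 4.75%) and 4 and 0 in vHPC (5.11% and 4.40%). In the striatum the chronic counts were 1 and 0 for DS (3.60% and 3.93%) and 1 and 1 for VS (4.49% and 5.46%). For the interaction, 12 had a positive and 0 a negative term in vHPC (5.50% and 6.05%), 2 and 0 in cortex (3.49% and 4.70%), 1 and 0 in dHPC (1.84% and 2.64%), 1 and 0 in DS (1.92% and 2.24%), and 1 and 2 in VS (1.66% and 2.96%).

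**Figure D1:**
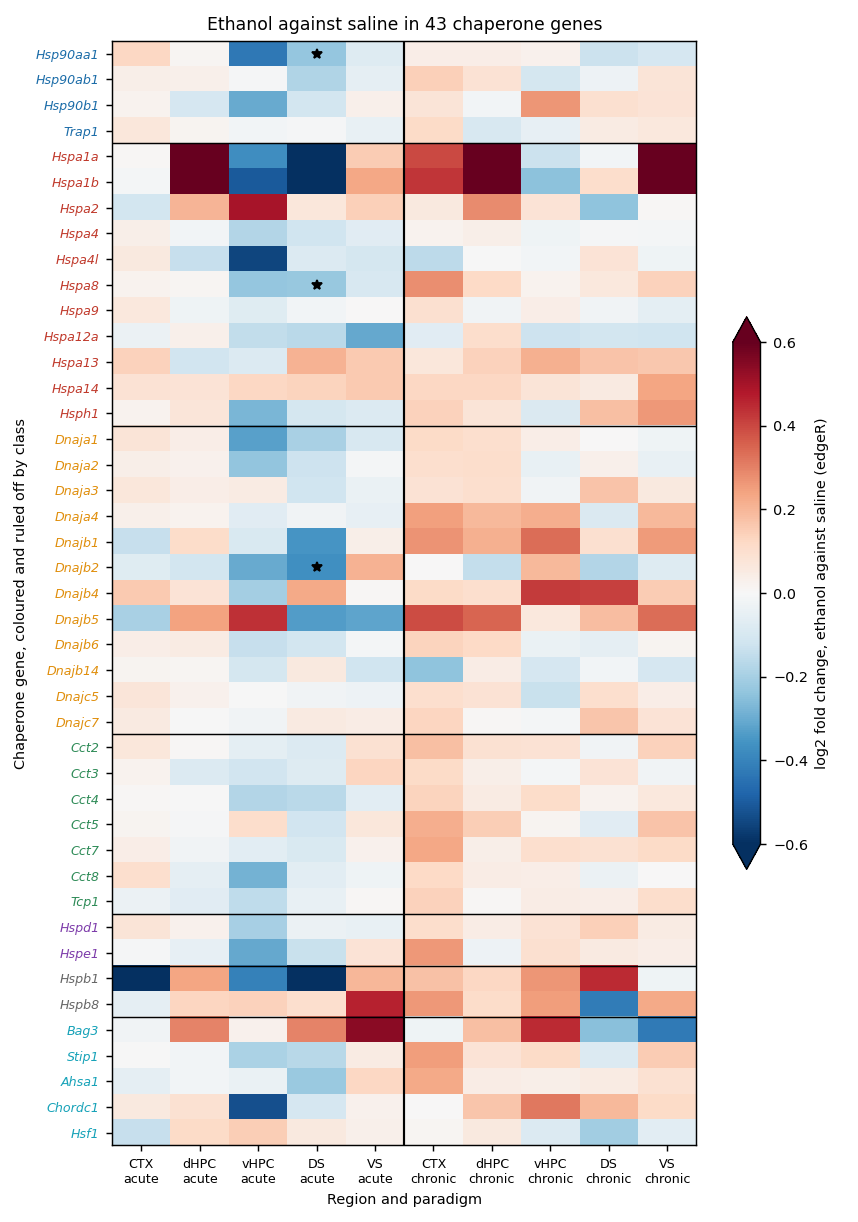
Log2 fold change of each of the 43 genes (rows, grouped by class) for ethanol against saline in the 10 comparisons (columns), on a colour scale with no difference at 0. Stars mark an edgeR FDR below 0.1, and the interactions are not drawn. The vHPC and DS acute columns are mostly below 0 and the cortex chronic column is mostly above 0. The lowest single values are those of Hspa1a and Hspa1b in DS acute (−1.52 and −1.65), which lie beyond the end of the colour scale.

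The question in DS was whether a single dose of ethanol, and then 10 daily doses, altered these genes in a tissue dominated by striatal projection neurons. After the acute dose, 9 of the 43 had a log2 fold change above 0 (50.8% of all genes), and the median was −0.11 against 0.004 for all genes, with a range of −0.12 to −0.07 over the alternatives. Every ethanol library was below every saline library for 11 genes (10.9% of all genes) and above for 1 (10.6%). The 3 genes called by edgeR were Dnajb2, Hspa8 and Hsp90aa1.

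Dnajb2 (chr1:75213050-75221448, GRCm39, plus strand) encodes a neuronal DNAJ protein that passes ubiquitylated clients towards the proteasome. Its level was 81.3, 77.9 and 82.2 CPM in the 3 acute saline mice and 59.5, 61.8 and 65.2 CPM in the 3 acute ethanol mice, or 80.5 ± 2.22 against 62.1 ± 2.85 (SD, n = 3 each). The groups were far apart, with the highest ethanol library below the lowest saline library by several times the spread within either group. The log2 fold change was −0.37 (SE 0.07), with an edgeR FDR of 0.0109 and a DESeq2 adjusted p of 0.000908, and it was called without any 1 of the 6 libraries. After chronic ethanol, Dnajb2 was 80.8 and 81.2 CPM in the 2 saline mice and 76.4, 64.4, 78.3 and 67.7 CPM in the 4 ethanol mice. All ethanol values were again the lower ones, but the difference of −0.18 had an edgeR FDR of 0.736, and the interaction of 0.20 had an FDR of 0.973.

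Hspa8 (chr9:40712280-40721383, GRCm39, plus strand) was 1598, 1538 and 1616 CPM with acute saline and 1439, 1380 and 1243 CPM with acute ethanol in DS. Hsp90aa1 (chr12:110657039-110669162, GRCm39, minus strand) was 922, 839 and 834 CPM with acute saline and 795, 723 and 696 CPM with acute ethanol. Neither gene's groups overlapped. The log2 fold changes were −0.23 (SE 0.06, edgeR FDR 0.0663) for Hspa8 and −0.23 (SE 0.07, FDR 0.0849) for Hsp90aa1, with DESeq2 adjusted p of 0.0107 and 0.0163. Both calls were lost when saline replicate 2, saline replicate 6, ethanol replicate 4 or ethanol replicate 5 was left out, with an edgeR FDR of up to 0.293 and 0.303, and each of these leaves 1 call, Dnajb2. Without saline replicate 4 there were 6 calls (5.37% of all genes) and without ethanol replicate 3 there were 5 (3.45%), against 3.00% to 3.55% of all genes with each of the other 4 libraries left out in turn. Fitting all 4 DS groups together also left 1 call (1.34% of all genes).

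Hsp90ab1 was 1366, 1334 and 1265 CPM with acute saline and 1183, 1202 and 1114 CPM with acute ethanol in DS. These groups did not overlap either, and the log2 fold change of −0.18 (SE 0.06) passed in DESeq2 (adjusted p 0.0383) but not in edgeR (FDR 0.116). Ahsa1, the co-chaperone that speeds the HSP90 ATPase, was 75.9, 87.1 and 73.7 CPM with saline and 67.6, 68.5 and 67.2 CPM with ethanol. Its log2 fold change of −0.22 had an edgeR FDR of 0.169. The mitochondrial chaperonins Hspd1 (HSP60) and Hspe1 (HSP10) had values of −0.03 and −0.13 with FDR of 0.886 and 0.515, and Hsph1 (HSP110) −0.11 with FDR 0.641. Hspa13 was the one gene with all ethanol values higher, at 48.9, 42.4 and 40.9 CPM with saline and 53.2, 50.4 and 49.0 CPM with ethanol (log2 fold change 0.21, FDR 0.271).

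Several other measures separated the same DS libraries. The 9 pallial excitatory neuron genes, most abundant among them Camk2a, summed to 1865, 1911 and 2189 CPM in the acute saline libraries and 1446, 1540 and 1456 CPM in the acute ethanol libraries; 7 were called lower and 1 higher. The 12 striatal projection neuron genes summed to 6678, 7994 and 7148 CPM with saline and 9170, 8955 and 8947 CPM with ethanol, with 10 called higher. The 6 hippocampal pyramidal neuron genes, which include Wfs1, summed to 184, 175 and 172 against 244, 193 and 221 CPM, with 2 called higher and a median log2 fold change of −0.10. The 10 choroid plexus genes overlapped, at 24.9, 300.1 and 166 against 823, 413 and 72.5 CPM, with 2 called higher and Slc4a5 at 0 in saline replicate 2, and ethanol replicate 5 had 46564992 counts against 9689502 to 15342254 in the other 5. The relation of counts to GC content also differed, with a rho of 0.134, 0.090 and 0.044 with saline and −0.093, 0.038 and −0.088 with ethanol. With the length and GC trends removed, the median over the 43 was −0.12. The part of the marker and depth differences in the chaperone values was not tested.

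**Figure D2:**
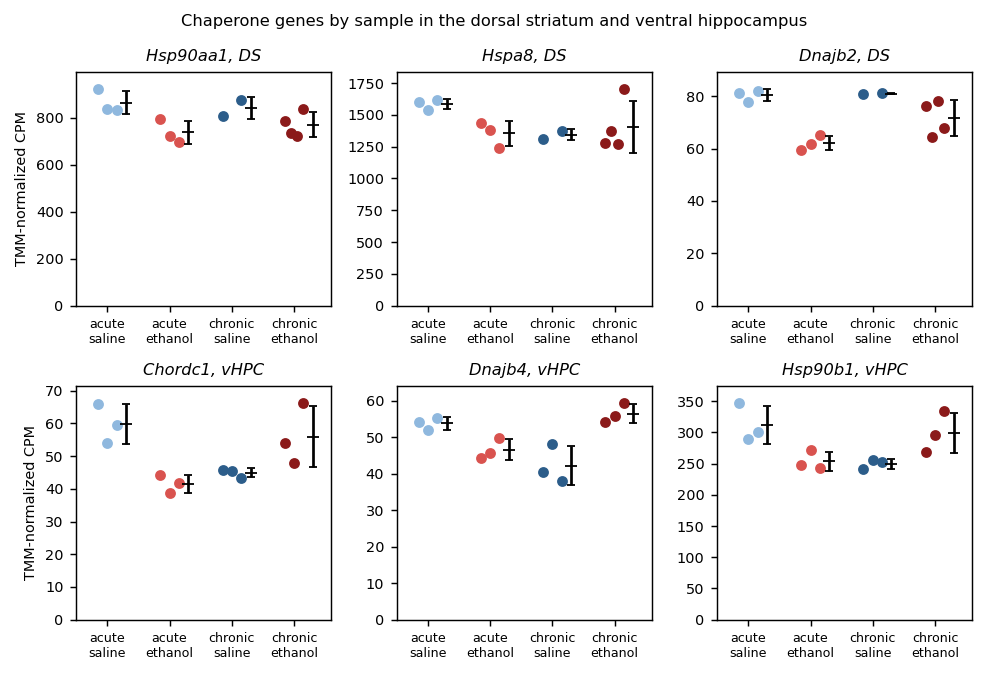
TMM-normalized CPM (vertical axes, from 0) of Hsp90aa1, Hspa8 and Dnajb2 in DS and of Chordc1, Dnajb4 and Hsp90b1 in vHPC in each library (points) of the 4 groups, with the mean and SD beside them. In DS the acute ethanol points lie below the acute saline points for all 3 genes, and in vHPC the acute ethanol points lie below and the chronic ethanol points above their saline points for all 3 genes.

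By class, the DS acute medians were −0.15 for HSP90 (0 of 4 above 0), −0.11 for HSP70 (3 of 11), −0.12 for DNAJ (3 of 12), −0.08 for CCT (0 of 7) and −0.08 for HSP60 and HSP10 (0 of 2), beside −0.34 for the small heat shock proteins (1 of 2) and −0.10 for the co-chaperones and Hsf1 (2 of 5). With the trends of each library with exon length and GC content removed, CCT was at −0.12 and the small heat shock proteins at −0.18. CCT subunits and HSP90 genes were thus all below 0, although no CCT subunit was called. After chronic ethanol, 25 of the 43 were above 0 in DS (49.5% of all genes), with a median of 0.04, which became −0.06 without chronic ethanol replicate 6 and 0.11 with the length and GC trends removed. All ethanol libraries were higher for 5 genes (8.75% of all genes) and lower for 1 (8.64%), from 2 saline mice. The class medians were 0.01 for HSP90, 0.05 for HSP70, 0.06 for DNAJ, 0.02 for CCT, 0.10 for HSP60 and HSP10, 0.01 for small heat shock proteins and −0.08 for the co-chaperones and Hsf1. Under the same correction they were 0.11, 0.11, 0.14, 0.07, 0.19, 0.11 and 0.02 in this order. Dnajb4, an HSP40 of the inducible DNAJB group, was 74.1 and 72.5 CPM with chronic saline and 84.5, 100.2, 89.4 and 117.3 CPM with chronic ethanol. It was higher in every ethanol mouse, with a log2 fold change of 0.41 and an edgeR FDR of 0.522.

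Other constitutive genes stood closer together after 10 days. Hspa8 was 1314 and 1374 CPM with chronic saline and 1278, 1374, 1269 and 1701 CPM with chronic ethanol in DS, and Hsp90ab1 was 1205 and 1232 against 1125, 1201, 1100 and 1364 CPM, so both overlapped. Hspb8, a small heat shock protein and partner of Bag3, was 9.39 and 22.6 CPM with saline and 16.4, 9.86, 10.6 and 10.6 CPM with ethanol, where its value of −0.42 (FDR 0.804) was the lowest of the 43. The highest was Hspb1, at 2.89 and 4.67 against 4.95, 5.13, 4.42 and 6.07 CPM (0.45, FDR 0.764). For the DS interaction, 34 of 43 terms were above 0 (50.2% of all genes) with a median of 0.15 that was 0.08 without chronic ethanol replicate 6, from Hspa1b at 1.72 (SE 1.11) to Bag3 at −0.54 (SE 0.35), both with an edgeR FDR of 0.973. Beside the chronic values, the 9 pallial genes (Camk2a most abundant) summed to 1934 and 2052 CPM with saline and 1351, 1687, 1651 and 1560 CPM with ethanol, with Neurod2 at 0 in ethanol replicate 1. The 10 myelin genes (Mbp) summed to 9430 and 9846 against 8894, 6941, 9004 and 6352 CPM, and the 10 microglial genes to 350.5 and 383 against 396, 399.7, 392.3 and 420.1 CPM. The 10 choroid plexus genes (most abundant Ttr, or Clic6 in the lowest libraries) overlapped between groups, at 1962 and 7360 CPM with saline and 3146, 27.0, 2974 and 22.8 CPM with ethanol, with Kcnj13 and Kcne2 at 0 in ethanol replicate 4 and Kcnj13 and Slc4a5 at 0 in ethanol replicate 6. None of these genes was called, and their part in the chaperone values was not tested.

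In vHPC, the acute comparison gave values below 0 for most members, as in DS. Of the 43, 8 had a log2 fold change above 0 (49.4% of all genes), and the median was −0.14 against −0.004 for all genes, or −0.10 after each library's trends with exon length and GC content were removed. All 3 ethanol libraries were below all 3 saline libraries for 17 genes (8.80% of all genes) and above for 1 (9.20%). The 17 held HSP90 genes (Hsp90aa1 and Hsp90b1), HSP70 genes (Hspa4, Hspa4l, Hspa8, Hspa9 and Hsph1), DNAJ genes (Dnaja1, Dnaja2, Dnajb2, Dnajb4 and Dnajb6), 2 CCT subunits (Cct4 and Cct8), both mitochondrial chaperonin genes and the co-chaperone Chordc1.

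Hspa4l encodes an HSP110 protein that exchanges nucleotide on HSP70. It was 231.4, 198.1 and 190.0 CPM with acute saline and 152.7, 144.1 and 126.2 CPM with acute ethanol in vHPC. The groups did not overlap, and the log2 fold change was −0.55 (SE 0.11), with an edgeR FDR of 0.191 and a DESeq2 adjusted p of 0.00134. Hsp90aa1 was 1227, 1041 and 1214 CPM with saline and 834.4, 904.0 and 843.7 CPM with ethanol. It too was lower in every ethanol mouse, by −0.43 on the log2 scale (SE 0.09, edgeR FDR 0.207, DESeq2 0.00209).

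Chordc1 (chr9:18203421-18228738, GRCm39, plus strand) encodes an HSP90 co-chaperone and carries the longest run of repeats among the promoters shown. Its level was 66.1, 54.0 and 59.4 CPM with acute saline and 44.1, 38.8 and 41.7 CPM with acute ethanol, a log2 fold change of −0.53 (SE 0.10, edgeR FDR 0.191, DESeq2 0.00568). Dnaja1, the major cytosolic DNAJ partner of HSC70, was 308.9, 264.1 and 336.1 CPM with saline and 233.4, 245.7 and 246.5 CPM with ethanol, at −0.32 (edgeR FDR 0.290, DESeq2 0.0849). These 4 genes were the ones that DESeq2 called lower, and none of their groups overlapped. The gene that DESeq2 called higher was Hspa2, an HSP70 abundant in testis and present in brain, at 51.1, 67.0 and 66.5 CPM with saline and 89.7, 84.0 and 86.4 CPM with ethanol (0.49, SE 0.12, edgeR FDR 0.213, DESeq2 0.0188).

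Leaving out acute saline replicate 6 took the edgeR calls among the 43 in vHPC acute from 0 to 3 (Hspa4l and Chordc1 lower, Dnajb5 higher), and those over all genes from 0 to 301 (1.54%); Hspa4l was then at −0.61. Hspa8 had values of 1935, 1746 and 2049 CPM with saline and 1616, 1669 and 1594 CPM with ethanol (−0.23, edgeR FDR 0.353). The mitochondrial chaperonins were also lower in all ethanol libraries: Hspd1 at 181.6, 162.7 and 165.2 against 146.3, 152.3 and 145.2 CPM (−0.20, FDR 0.385) and Hspe1 at 43.6, 36.5 and 46.3 against 33.8, 33.0 and 35.3 CPM (−0.31, FDR 0.342). Hsp90ab1, which shares most of its protein sequence with Hsp90aa1, had a log2 fold change of −0.01.

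The class medians in vHPC acute were −0.16 for HSP90 (0 of 4 above 0), −0.18 for HSP70 (2 of 11), −0.10 for DNAJ (2 of 12), −0.12 for CCT (1 of 7), −0.25 for HSP60 and HSP10 (0 of 2), −0.13 for small heat shock proteins (1 of 2) and −0.04 for the co-chaperones and Hsf1 (2 of 5), and that of CCT was −0.05 with the length and GC trends removed. They lay below 0 in each class, and the spread within the HSP70 class (Hspa4l at −0.55, Hspa2 at 0.49) was wider than the differences between the class medians. Beside these values, the 6 dentate granule neuron genes (Prox1 or Calb1 most abundant) summed to 368, 325 and 211 CPM with saline and 622, 503 and 748 CPM with ethanol, the 6 mural cell genes to 162, 172 and 154 against 148, 120 and 125 CPM, and the 10 microglial genes to 302, 324 and 315 against 346.5, 330.1 and 335 CPM. The 6 thalamic neuron genes overlapped, at 148 to 853 CPM with saline and 60.4 to 221 CPM with ethanol, with a median log2 fold change of −1.92 and 0 called. Mitochondrially encoded genes took 6.01%, 5.02% and 5.24% of counts with saline and 4.66%, 4.59% and 4.28% with ethanol. The relation of counts to GC content differed too, with a rho of −0.205, −0.107 and 0.033 with saline and 0.154, 0.140 and 0.067 with ethanol. The part of the marker and mitochondrial differences in the chaperone values was not tested.

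After chronic ethanol the vHPC values lay around 0: 27 of the 43 were above 0 (51.1% of all genes), with a median of 0.04, or −0.05 with the length and GC trends removed and 0.10 without ethanol replicate 5. The ethanol libraries were all higher for 6 genes (7.48% of all genes), which were Bag3, Chordc1, Dnaja4, Dnajb1, Dnajb4 and Hsp90b1, and all lower for 0 (7.24%). Dnajb4 (chr3:151884148-151915720, GRCm39, minus strand) was 40.5, 48.2 and 38.1 CPM with chronic saline and 54.2, 55.9 and 59.4 CPM with chronic ethanol, after 54.2, 51.9 and 55.3 against 44.4, 45.7 and 49.9 CPM in the acute groups. Its ethanol mice were thus lower than saline mice in one paradigm and higher in the other, at −0.21 (edgeR FDR 0.406) and 0.42 (SE 0.11, FDR 0.343). Chordc1 was 45.9, 45.5 and 43.4 CPM with chronic saline and 54.0, 47.8 and 66.2 CPM with chronic ethanol (0.32, FDR 0.486). The highest value was that of Bag3, at 7.31, 6.90 and 5.12 CPM with saline and 8.37, 7.64 and 10.4 CPM with ethanol (0.45, SE 0.21, FDR 0.541). The lowest was that of Hspa1b, at 35.3, 37.0 and 58.3 against 34.8, 21.4 and 54.1 CPM with overlapping groups (−0.25, FDR 0.825).

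The ER chaperone Hsp90b1 (chr10:86526073-86541373, GRCm39, minus strand) was 346.9, 289.8 and 300.7 against 247.1, 271.2 and 242.4 CPM in the acute groups of vHPC. In the chronic groups it was 241, 255.1 and 252.7 against 269.4, 296 and 333.6 CPM. Its groups did not overlap in either paradigm, with ethanol lower after 1 dose (−0.30, edgeR FDR 0.306) and higher after 10 (0.26, FDR 0.471). The saline groups of the paradigms also differed: for Chordc1 the 3 chronic saline mice (43.4 to 45.9 CPM) were all below the 3 acute saline mice (54.0 to 66.1 CPM). The same held for Hsp90b1 (241 to 255.1 against 289.8 to 346.9 CPM) and for Dnajb4, by its values given above. An interaction of these genes therefore also holds a difference between the saline groups.

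The interaction test, which asked whether the chronic effect differed from the acute effect, had 34 of 43 terms above 0 in vHPC (51.3% of all genes) with a median of 0.19 against 0.01 for all genes. The median was 0.09 with the length and GC trends removed. DESeq2 called Chordc1 (0.84, SE 0.17), Dnajb4 (0.62, SE 0.14), Hsp90b1 (0.56, SE 0.14), Hspa4l (0.53, SE 0.17) and Hsp90aa1 (0.46, SE 0.15), with adjusted p of 0.00676, 0.0145, 0.0195, 0.0968 and 0.0999, where the sizes and errors are those of edgeR. In edgeR their FDR was 0.289, 0.289, 0.289, 0.313 and 0.326, and none was called. Without acute saline replicate 6, edgeR called 3 of them (Chordc1, Dnajb4 and Hsp90b1), with 434 genes called in all (2.12%).

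The other 7 of the 12 members with the smallest p in this test were Dnajb2 (0.50, edgeR FDR 0.360), Hspe1 (0.40, 0.373), Dnaja1 (0.37, 0.397), Cct8 (0.32, 0.370), Stip1 (0.30, 0.427), Hspd1 (0.29, 0.414) and Cct4 (0.29, 0.429). They spanned the DNAJ, CCT and mitochondrial classes and the HSP70 to HSP90 adaptor Stip1. The lowest term was that of Hspa2 (−0.42, FDR 0.444). By class, the interaction medians were 0.21 for HSP90, 0.19 for HSP70, 0.14 for DNAJ, 0.16 for CCT, 0.34 for HSP60 and HSP10, 0.39 for small heat shock proteins and 0.30 for the co-chaperones and Hsf1, and CCT had 6 of 7 terms above 0 against 2 of 4 for HSP90. With the length and GC trends removed they were 0.17 for HSP90, 0.09 for HSP70, 0.07 for DNAJ, 0.05 for CCT, 0.24 for HSP60 and HSP10, 0.43 for small heat shock proteins and 0.28 for the co-chaperones and Hsf1.

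**Figure D3:**
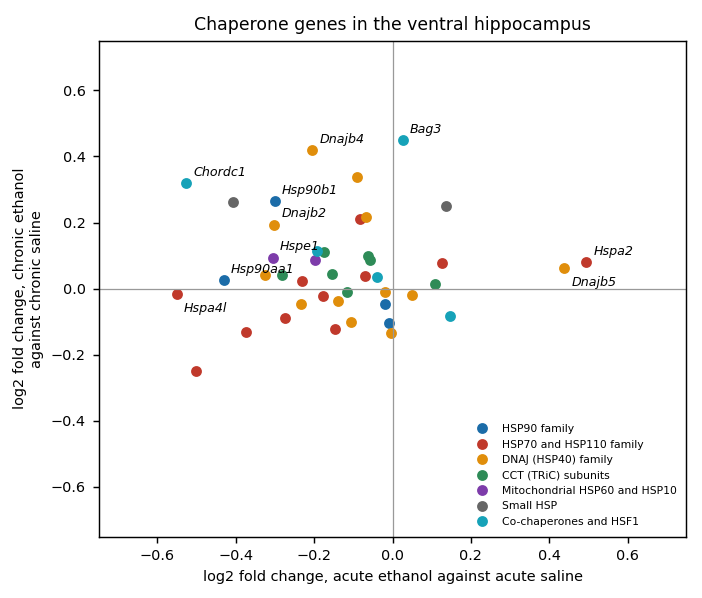
Log2 fold change of each of the 43 genes in vHPC after chronic ethanol (vertical axis) against that after acute ethanol (horizontal axis), coloured by class, with lines at 0. Most points lie left of the vertical line, Chordc1, Dnajb4 and Hsp90b1 lie in the upper left (lower after the acute dose, higher after 10 doses), and Hspa2 and Dnajb5 lie to the right.

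Tissue markers moved in the chronic vHPC libraries as well. The 10 choroid plexus genes (most abundant Ttr, or Kl in saline replicate 2) summed to 26.9, 210 and 119 CPM with saline and 920, 3268 and 1399 CPM with ethanol; 7 were called higher, and Folr1 and Kcnj13 were at 0 in saline replicate 2. The 6 pyramidal neuron genes summed to 575, 525 and 545 against 466, 243 and 288 CPM, the 9 pallial excitatory genes to 7509, 7193 and 7886 against 6103, 4254 and 5428 CPM, and the 6 mural genes to 150.4, 164 and 165 against 132, 120 and 123 CPM. The 8 endothelial genes (Flt1 most abundant) summed to 160.3, 173.5 and 183 against 140.5, 145 and 143 CPM. The 12 striatal projection neuron genes overlapped, at 275 to 502 CPM with saline and 328 to 1744 CPM with ethanol, with a median log2 fold change of 1.62 and 0 called. Their part in the chaperone values was not tested.

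In the cortex the chronic comparison gave the opposite direction from DS and vHPC acute. Of the 43 genes, 39 had a log2 fold change above 0 (49.1% of all genes), the median was 0.12 against −0.005 for all genes, and all ethanol libraries were above all saline libraries for 16 genes (8.99% of all genes) and below for 0 (9.24%). All 7 CCT subunits were among the 16, together with Hspa8, Hsp90ab1, Hsph1, Hspe1, Dnaja3, Dnajb6, Dnajc7, Stip1 and Ahsa1. None was called by edgeR or DESeq2.

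Hspa8 was 1560, 1650 and 1722 CPM with chronic saline and 1885, 1942 and 2109 CPM with chronic ethanol in the cortex. The lowest ethanol library was above the highest saline library, and the log2 fold change was 0.28 (SE 0.09, edgeR FDR 0.443). Among the CCT subunits, which form the paired rings of the chaperonin, Cct7 was 140.0, 143.3 and 141.0 CPM with saline and 158.1, 160.6 and 175.3 CPM with ethanol (0.23, SE 0.08, FDR 0.443). Cct5 was 96.9, 97.9 and 98.0 against 108.4, 113.0 and 116.6 CPM (0.22, FDR 0.443), and Cct2 was 102.0, 105.9 and 104.0 against 113.5, 116.6 and 120.0 CPM (0.18, FDR 0.468). The saline mice were close together for each subunit, and the groups did not overlap. Cct8 had a narrow gap, at 117.0, 123.6 and 124.0 against 133.6, 134.7 and 125.1 CPM.

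Hspe1 was 26.5, 28.9 and 29.6 CPM with chronic saline and 31.4, 35.2 and 34.5 CPM with chronic ethanol (0.26, edgeR FDR 0.443). Stip1 was 123.3, 140.4 and 141.6 against 159.0, 152.9 and 165.7 CPM (0.25, FDR 0.443), and Ahsa1 was 92.1, 94.5 and 99.0 against 108.7, 104.3 and 118.4 CPM (0.23, FDR 0.443). These HSP90 co-chaperones were higher in every ethanol mouse, as was Hsp90ab1 itself at 1206, 1347 and 1313 against 1390, 1399 and 1441 CPM (0.14, FDR 0.559). The lowest value was that of Dnajb14, an ER membrane DNAJ protein, at 120.9, 113.4 and 126.8 against 120.2, 100.6 and 82.2 CPM (−0.24, FDR 0.525).

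By class, the cortex chronic medians were 0.09 for HSP90 (4 of 4 above 0), 0.10 for HSP70 (9 of 11), 0.12 for DNAJ (11 of 12), 0.14 for CCT (7 of 7) and 0.18 for HSP60 and HSP10 (2 of 2), beside 0.22 for the small heat shock proteins (2 of 2) and 0.01 for the co-chaperones and Hsf1 (4 of 5). This order did not hold under the length and GC correction below. The relation of counts to exon length differed between these libraries: its Spearman rho was 0.177, 0.006 and 0.001 with saline and −0.059, −0.216 and −0.152 with ethanol. With the length and GC trends removed, the median over the 43 was 0.21, and 21 were higher at an unadjusted edgeR p below 0.05 (8.27% of all genes), with 0 called. The class medians were then 0.11 for HSP90, 0.20 for HSP70, 0.21 for DNAJ, 0.24 for CCT, 0.19 for HSP60 and HSP10, 0.15 for small heat shock proteins and 0.22 for the co-chaperones and Hsf1. The 8 astrocyte genes (Slc1a2 most abundant) summed to 3717, 3162 and 3247 CPM with saline and 2876, 2489 and 3058 CPM with ethanol, and the 6 mural genes (Rgs5) to 166, 157 and 152.5 against 130.5, 150.0 and 137 CPM. None of these genes was called, and their part in the chaperone values was not tested.

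**Figure D4:**
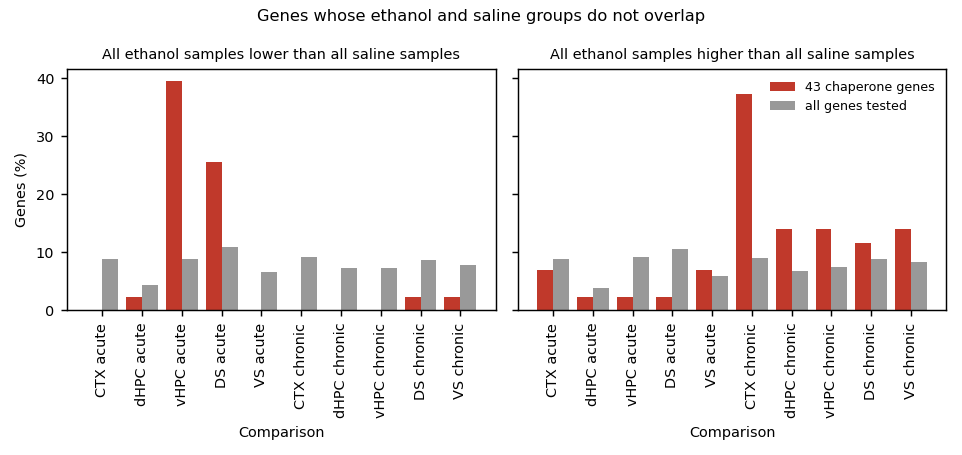
Share of genes (percent) for which all ethanol libraries lie below (left) or above (right) all saline libraries in each of the 10 comparisons, for the 43 chaperone genes (red) and all genes tested (grey). The red bars are tallest in vHPC acute and DS acute on the left (17 and 11 of 43) and in cortex chronic on the right (16 of 43).

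In cortex acute, 29 of the 43 were above 0 (50.6% of all genes) with a median of 0.02, or −0.02 without ethanol replicate 2 and 0.06 without saline replicate 2. All ethanol libraries were higher for 3 genes (8.85% of all genes) and lower for 0 (8.79%). The highest value was that of Dnajb4, at 52.0, 48.7 and 54.9 against 63.2, 56.1 and 54.0 CPM (0.15, edgeR FDR 0.399), and Hsp90aa1 had 0.13 (FDR 0.394). For the cortex interaction, 34 of 43 terms were above 0 (47.2% of all genes) with a median of 0.08, or 0.05 without acute ethanol replicate 4 and 0.16 with the length and GC trends removed, and 7 of 7 for CCT, from Hspb1 at 0.84 (FDR 0.685) to Dnajb14 at −0.27 (FDR 0.623). The terms of Hspa8 and Ahsa1 were 0.25 and 0.27, each with an FDR of 0.60.

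Several marker lists separated the acute cortex libraries, with no gene at 0. The 8 fibroblast and meningeal genes (Igf2 most abundant) summed to 106, 107 and 93.7 CPM with saline and 65.5, 70.6 and 60.6 CPM with ethanol, with 6 called lower. The 10 myelin genes (Mbp) summed to 2198, 1941 and 2110 against 2991, 3008 and 2261 CPM, with 5 called higher. Vascular genes were lower with ethanol, the 8 endothelial genes (Flt1) at 191, 203 and 199 against 178.5, 168 and 166 CPM (2 called lower) and the 6 mural genes (Rgs5) at 165, 166 and 161 against 144, 137 and 131 CPM (1 called lower). The 12 striatal projection neuron genes (Ppp1r1b or Pde10a) summed to 457, 421.5 and 507 against 408, 396 and 414 CPM (3 called lower). The 9 pallial excitatory neuron genes (Camk2a) summed to 5481, 5931 and 5600.5 against 5199, 5279 and 5189 CPM (1 called higher and 1 lower), and the 10 microglial genes (Csf1r) to 317, 306 and 299.8 against 288, 292 and 293 CPM (0 called). Their part in the chaperone values was not tested.

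In dHPC the acute values lay around 0, with 27 of 43 above it (49.7% of all genes), a median of 0.02 that was −0.03 without ethanol replicate 2 and 0.05 with the length and GC trends removed, and 1 gene each with all ethanol libraries higher (3.74% of all genes) or lower (4.42%). Hspa4l had the lowest value, at 178.8, 165.2 and 166.4 CPM with saline and 167.0, 148.2, 160.2 and 144.6 CPM with ethanol (−0.14, edgeR FDR 0.630). After chronic ethanol, 37 were above 0 (49.2% of all genes) with a median of 0.09, and 6 had all ethanol libraries higher (6.80% of all genes) and 0 lower (7.18%). That median was 0.01 without chronic ethanol replicate 6. Dnajb5, an HSP40 of brain and heart, was 121.2, 103.7 and 122.0 against 127.2, 140.4 and 172.9 CPM (0.35, FDR 0.566), and the lowest value was that of Dnajb2, at 66.0, 76.9 and 76.1 against 64.0, 66.4 and 67.4 CPM (−0.14, FDR 0.652). The chronic class medians in dHPC were 0.01 for HSP90 (2 of 4 above 0), 0.12 for HSP70 (9 of 11), 0.10 for DNAJ (11 of 12), 0.04 for CCT (7 of 7), 0.01 for HSP60 and HSP10, 0.12 for small heat shock proteins and 0.08 for the co-chaperones and Hsf1. With the length and GC trends removed they were 0.05, 0.15, 0.13, 0.08, 0.07, 0.22 and 0.15 in this order. For the interaction, 36 of 43 terms were above 0 (46.6% of all genes) with a median of 0.05, which was −0.02 without chronic ethanol replicate 6 and 0.10 without chronic ethanol replicate 1, from Hspa13 at 0.25 (FDR 0.969) to Hspb1 at −0.13 (FDR 0.995).

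Beside the chronic values in dHPC, the 6 dentate granule neuron genes (Prox1 or Calb1 most abundant) summed to 571, 373 and 561 CPM with saline and 816, 595.5 and 824 CPM with ethanol. The 9 pallial excitatory neuron genes (Camk2a) summed to 5727, 4256 and 5175 against 6127, 5956 and 5751 CPM, and the 10 myelin genes (Mbp) to 6702, 7828 and 7426 against 6120, 5656 and 5335 CPM. The neuronal sums were thus higher and the myelin sum lower in every ethanol library. None of these genes was at 0 or called. The 12 striatal projection neuron genes overlapped, at 289 to 3260 CPM with saline and 282 to 424 CPM with ethanol, with a median log2 fold change of −2.34. The 10 choroid plexus genes overlapped too, at 41.8 to 2866 against 35.0 to 1672 CPM (median −1.39), and 0 genes of either list were called. The part of all these lists in the chaperone values was not tested.

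In VS, 24 of 43 were above 0 after acute ethanol (51.0% of all genes) with a median of 0.01 that was −0.07 without ethanol replicate 2 and 0.08 without ethanol replicate 5, and 30 after chronic ethanol (48.8%) with a median of 0.06 that was 0.03 without ethanol replicate 6 and 0.11 with the length and GC trends removed. All ethanol libraries were higher for 3 genes (5.90% of all genes) and lower for 0 (6.61%) after the acute dose, and higher for 6 (8.33%) and lower for 1 (7.79%) after 10 doses. Of the 6, 4 were CCT subunits. Cct7 was 150.4, 161.1 and 153.3 CPM with chronic saline and 169.2, 165.6 and 168.6 CPM with chronic ethanol, and Tcp1 was 177.3, 172.5 and 172.5 against 186.5, 183.8 and 192.7 CPM. The groups were apart but by little, and the CCT median was 0.11 (6 of 7 above 0) beside 0.07 for HSP90, 0.14 for HSP70, 0.05 for DNAJ, 0.05 for HSP60 and HSP10, 0.10 for small heat shock proteins and 0.09 for the co-chaperones and Hsf1. With the trends removed, the medians of CCT, DNAJ and the HSP60 and HSP10 pair were 0.17, 0.10 and 0.08.

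Bag3 had the highest acute and the lowest chronic log2 fold change of the 43 in VS. It was 5.86, 5.83 and 6.14 CPM with acute saline and 9.45, 6.30 and 10.07 CPM with acute ethanol (0.54, SE 0.22, edgeR FDR 0.630). In the chronic groups it was 6.90, 7.30 and 7.51 CPM with saline and 5.22, 5.37 and 5.58 CPM with ethanol (−0.42, SE 0.18, FDR 0.490). Neither pair of groups overlapped, and the interaction of −0.96 (SE 0.27) had an edgeR FDR of 0.997 and a DESeq2 adjusted p of 0.459. Dnajb5 went the other way, at −0.32 after the acute dose and an interaction of 0.65 (FDR 0.997), with overlapping groups. For the VS interaction, 31 of 43 terms were above 0 (49.9% of all genes) with a median of 0.07 that was 0.02 without acute ethanol replicate 5.

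Marker sums differed between the VS groups as well. With the acute dose, the 9 pallial excitatory neuron genes (Camk2a most abundant) summed to 1921, 2405 and 2523 CPM with saline and 1838, 1338 and 1173 CPM with ethanol, with 1 called lower and Emx1 at 0 in ethanol replicate 3. After 10 doses, the 6 pyramidal neuron genes (Wfs1) summed to 269, 340.3 and 312.5 against 437, 616 and 728 CPM, with Spink8 at 0 in saline replicate 3. Astrocyte and vascular sums were lower in every chronic ethanol library, the 8 astrocyte genes (Slc1a2) at 2881, 2609 and 2718 against 2499.7, 2441 and 2414 CPM. The 8 endothelial genes (Flt1) were at 193, 192 and 198 against 179, 178 and 189 CPM and the 6 mural genes (Rgs5) at 159.8, 149 and 156 against 137, 129.6 and 139 CPM. None of the chronic lists held a called gene. Their part in the chaperone values was not tested.

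The stress-inducible genes varied widely between mice of 1 group. Hspa1a (chr17:35188166-35191132) and Hspa1b (chr17:35175412-35178214, both GRCm39, minus strand) encode nearly the same HSP70 protein, and read pairs that mapped to both were counted for each, so their values are not independent; the ratio of Hspa1b to Hspa1a counts lay between 0.66 and 1.19 in all complete libraries. Their promoters match in the stretch shown. In DS acute, Hspa1a was 33.0, 6.71 and 36.5 CPM with saline and 12.7, 10.6 and 4.54 CPM with ethanol. Saline replicate 4 lay within the ethanol values, and the log2 fold change of −1.52 (SE 0.48) had an edgeR FDR of 0.121 and a DESeq2 adjusted p of 0.354. Without saline replicate 4 it was −2.0 with an edgeR FDR of 0.00642. Hspa1b had −1.65 (SE 0.54, FDR 0.136), from 35.2, 5.55 and 38.2 against 12.8, 9.99 and 3.85 CPM, and without that library −2.15.

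In cortex acute, Hspa1a was 57.2, 52.6 and 60.1 CPM with saline and 97.5, 38.0 and 35.5 CPM with ethanol. The ethanol mice fell on both sides of the saline mice, and the log2 fold change was 0.01 (edgeR FDR 0.995). Without ethanol replicate 2 it was −0.62 with an FDR of 0.00488, and edgeR then called 4 of the 43 lower in place of 0, where 1.95% of all genes were called lower. They were Hspa1a, Hspa1b, Hspb1 and Dnajb1. Hspb1 was 8.40, 5.86 and 9.75 against 8.78, 3.26 and 3.05 CPM (−0.68, FDR 0.405), and Dnajb1, the inducible HSP40 partner of HSP70, was 60.8, 60.7 and 71.0 against 73.9, 50.2 and 51.05 CPM (−0.14, FDR 0.709). In dHPC acute the ethanol library of the same mouse was again the highest for Hspa1a, at 53.2, 40.0 and 32.7 CPM with saline and 129.7, 58.6, 38.0 and 43.2 CPM with ethanol (0.68, FDR 0.702, and 0.14 without it). In VS acute it was 27.4, 16.4 and 33.5 against 55.2, 21.4 and 9.51 CPM (0.15, and −0.77 without it).

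Chronic ethanol replicate 6 showed the same kind of difference. Hspa1a was 45.5, 40.0 and 29.9 CPM with chronic saline and 33.9, 36.5 and 79.8 CPM with chronic ethanol in the cortex, and 39.1, 34.1 and 31.3 against 43.3, 41.3 and 86.8 CPM in dHPC, where the last value is that mouse. Hspa1b had the highest log2 fold change of the 43 in cortex chronic (0.43, SE 0.33, edgeR FDR 0.645), from 45.1, 38.1 and 27.8 against 30.8, 35.2 and 81.7 CPM. In DS, Hspa1a was 9.54 and 10.2 against 3.57, 4.44, 4.72 and 26.6 CPM, and in VS 9.91, 10.3 and 7.51 against 9.80, 8.16 and 27.0 CPM. The mouse was the highest of its group in each of these 4 regions, and leaving it out took the log2 fold change of Hspa1a in cortex from 0.39 to −0.12, in dHPC from 0.72 to 0.29, in DS from −0.02 to −1.22 and in VS from 0.69 to −0.05. In vHPC, Hspa1a was 36.2, 32.8 and 49.7 against 34.9, 22.5 and 51.3 CPM (−0.13).

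Both mice often had the highest level of their group over the class as a whole, a pattern chosen after the values were seen. Acute ethanol mouse 2 had the highest level of its group for 32 of the 43 genes in cortex (33.9% of all genes), 29 in dHPC (27.5%) and 29 in VS (34.5%), and was not sampled in vHPC or DS. Chronic ethanol mouse 6 was the highest for 24 in cortex (37.3% of all genes), 37 in dHPC (34.5%) and 23 in vHPC (34.3%), and for 34 in DS (26.5%) and 26 in VS (37.0%). Saline mice did so too in some regions. Acute saline mouse 2 was the highest for 30 in dHPC (34.7%), 28 in cortex (34.3%), 22 in DS (33.6%), 15 in VS (37.2%) and 12 in vHPC (34.7%), and acute saline mouse 6 for 13 in cortex (33.2%), 28 in vHPC (37.7%), 15 in DS (32.7%) and 21 in VS (30.02%). Chronic saline mouse 6 was the highest for 28 in cortex (32.3%), 17 in dHPC (34.1%), 29 in vHPC (34.5%) and 11 in VS (33.4%), and for 20 in DS, where 2 saline mice were compared (49.6%). Acute ethanol mouse 3 was the highest for 29 in DS (36.5%), 13 in vHPC (28.8%), 5 in dHPC (23.9%) and 8 in VS (29.1%).

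**Figure D5:**
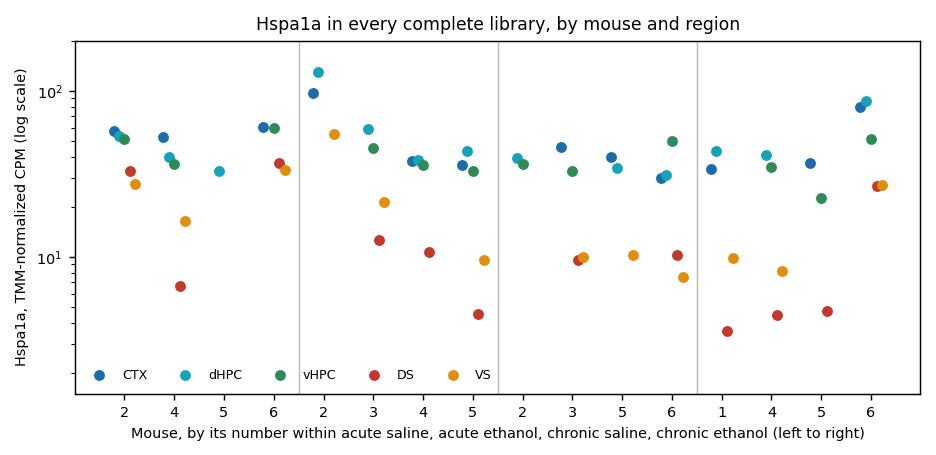
Hspa1a level in TMM-normalized CPM on a log scale (vertical axis) for each mouse (horizontal axis), with 1 point per region sampled in a complete library. The region medians are not drawn. Relative to them, acute ethanol mouse 2 reaches 2.28, 3.14 and 4.14 times the median in cortex, dHPC and VS. Acute saline mouse 6 reaches 3.70 times the median in DS, and chronic ethanol mouse 6 is high in several regions.

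Over the 10 pairwise comparisons, the remaining reference genes of each class had smaller values. Hsph1 ranged from −0.28 (vHPC acute, edgeR FDR 0.358) to 0.26 (VS chronic, FDR 0.633), Hspd1 from −0.20 (vHPC acute) to 0.14 (DS chronic, FDR 0.778), and Hspe1 from −0.31 (vHPC acute) to 0.26 (cortex chronic). Hsf1, the transcription factor of the heat shock response, ranged from −0.21 (DS chronic, FDR 0.753) to 0.15 (vHPC acute, FDR 0.628), and 6 of its 10 values were above 0. Hsp90ab1 ranged from −0.18 (DS acute) to 0.14 (cortex chronic). Hspa8 and Hsp90aa1 were lowest in vHPC and DS acute, and highest in cortex chronic (0.28) and cortex acute (0.13).

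Other genes of the folding pathway, 79 outside the 43, were tested in the same fits. In DS acute, edgeR called 1 higher and 5 lower of 78 (2.05% and 3.10% of all genes). The gene that rose was Fkbp5, the HSP90 co-chaperone of steroid receptors and a glucocorticoid target, at 47.9, 46.6 and 47.1 CPM with saline and 71.2, 85.6 and 89.2 CPM with ethanol (0.80, SE 0.09, FDR 0.000253). It also rose in cortex acute, from 31.5, 36.4 and 39.7 to 51.9, 77.5 and 75.4 CPM (0.93, SE 0.13, edgeR FDR 0.0103). The genes that fell in DS acute were Cryab (αB-crystallin, −0.36, FDR 0.0272), Dnajc6 (auxilin, which works with HSC70 on clathrin coats, −0.25, FDR 0.0491), Hspbp1 (a nucleotide exchange factor of HSP70, −0.31, FDR 0.0647), Cct6a (the remaining CCT subunit, −0.23, FDR 0.0698) and Fkbp4 (another HSP90 co-chaperone of steroid receptors, −0.34, FDR 0.0726). Cryab was 82.6, 75.3 and 91.7 CPM with saline and 66.8, 63.8 and 63.6 CPM with ethanol, with no overlap.

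The ER lumen chaperones, to which Hsp90b1 belongs by location, were tested for the same interaction in vHPC. All 10 listed genes had a positive term (51.3% of all genes), with a median of 0.49. An unadjusted edgeR p below 0.05 was found for 7 (5.50% of all genes), while edgeR called 0. DESeq2 called 5, which were Pdia3, Pdia4, Calr, Canx and Pdia6, and it called 1.51% of the 9023 genes it tested with a positive term. Hspa5 (BiP, the HSP70 of the ER) stands in another list, the heat shock factors and HSF1 targets, and is not one of the 10. It was 273, 199 and 286 CPM with acute saline and 204, 208 and 175 CPM with acute ethanol. With chronic saline it was 172, 167 and 162 CPM, below every acute saline mouse. With chronic ethanol it was 210, 222 and 372 CPM, so that all chronic ethanol mice were above the chronic saline mice. The 372 CPM was that of chronic ethanol mouse 6. This mouse also had the highest Hspa5 of its group in cortex (296 CPM), dHPC (370), DS (439) and VS (385). The Hspa5 interaction in vHPC was 1.05 (SE 0.27, edgeR FDR 0.289, DESeq2 adjusted p 0.0195), so that DESeq2 called it. In cortex chronic, 65 of the 79 were above 0 (49.1% of all genes) with a median of 0.13 against −0.005 for all genes, including 8 of 10 of the remaining CCT subunit and prefoldin genes (median 0.18) and 8 of 8 mitochondrial chaperone partners and proteases (median 0.13). In vHPC chronic the 8 mitochondrial genes were all below 0 (median −0.11).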

How the data were processed

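The deposited files hold gene counts, which the authors made per library: per the study's methods and processing notes, adapters were trimmed with cutadapt 5.0, read pairs were aligned to GRCm39 with STAR 2.7.10a, and featureCounts 2.0.6 counted them as reverse-stranded, where a multi-mapping pair, or one shared by overlapping genes, was counted for each. The cortex and dHPC kit does not mark strand, so reads of a gene and of an overlapping antisense gene there cannot be told apart. Exons of 34 of the 43 genes overlap a gene on the other strand, 9 of them over more than 20% of their length (Ahsa1, Cct8, Dnaja1, Dnaja4, Hsf1, Hsp90ab1, Hspa2, Stip1 and Tcp1).

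The genes, classes and lists were chosen with earlier results of these data known. Genes were kept where 2 or more libraries of a group held 5 or more counts, normalized by TMM and fitted within each region with edgeR 4.0.16 (quasi-likelihood F test, prior count 0.125, R 4.3.3). P-values were adjusted over all genes by Benjamini-Hochberg, and an FDR below 0.1 was a call. Levels are TMM-normalized CPM. SE is the log2 fold change divided by the square root of F. Samples were grouped by the labels, and deposited transcript counts were not used. The 15 tests were 10 comparisons of ethanol with saline and 5 interactions. The text names every call and, where a test has none, the highest and the lowest log2 fold change, the 12 smallest p in the vHPC interaction, and 12 reference genes; other genes named by the separation of their groups were chosen after their values were seen. The fits were tested on simulated data.

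Alternatives were DESeq2 1.42.0, its size factors in edgeR, no filter, at least 10 counts in every sample, removal of length and GC trends, all 4 groups in 1 fit, a replicate block, leaving out each library, and keeping the incomplete library. P-values measure the spread between mice, which the labels give as separate animals. DESeq2 with the incomplete library kept was added after seeing the data.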

Additional observations from a re-analysis of the deposited data

Results flagged for a closer look

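In groups of 4 mice, 1 library lay far outside the other 3 for 5 of 29 sets of values examined, where chance gives about 1 in 20. In dHPC acute ethanol, replicate 2 had 12.6 CPM of Hspb1 and 14.0 CPM of Bag3, and in DS chronic ethanol, replicate 6 had 26.6 CPM of Hspa1a and 26.2 CPM of Hspa1b, which shares reads with it. Replicate 1 of DS chronic ethanol had 16.4 CPM of Hspb8. Because several of the 5 come from the same library, they are not independent, and their number cannot be read as an excess over chance.

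The chronic and acute effects differed in vHPC by the DESeq2 interaction test, and not by edgeR, for Hsp90aa1 (0.46), Hsp90b1 (0.56), Hspa4l (0.53), Dnajb4 (0.62) and Chordc1 (0.84). In VS all acute ethanol mice were above and all chronic ethanol mice below their saline mice for Bag3, with an interaction of −0.96 that edgeR did not call (FDR 0.997).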

How the results depend on the processing

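The number of the 43 genes called by edgeR depended most on the filter and on single libraries. With no filter on low counts it was 2 in cortex acute (3.96% of all genes), 2 in the cortex interaction (0.787%), 4 in vHPC acute (0.881%), 1 in vHPC chronic (2.66%), 4 in the vHPC interaction (2.7%), 9 in DS acute (5.81%), 1 in DS chronic (1.60%), 3 in the DS interaction (0.717%) and 1 in the VS interaction (0.597%). DESeq2 called 5 in vHPC acute (4.46% of the 12963 genes it tested) and 5 in the vHPC interaction (4.62% of 9023). Fitting all 4 groups together left 1 call in DS acute (1.34%). Leaving out 1 library at a time gave 0 to 4 calls in cortex acute, 0 to 3 in vHPC acute, 0 to 3 in the vHPC interaction, 1 to 6 in DS acute, and 0 to 0 in the other 11 tests. Hspa1a in cortex acute without acute ethanol replicate 2 turned from 0.01 to −0.62 (−0.62 to 0.26 over the 6 libraries left out), the only named value that reversed with a call. The cause of these differences was not tested. Of 2913 values of named genes under the alternatives, 2706 kept their sign.

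With the replicate number as a block, 0 of the 43 were called in cortex acute, cortex chronic, the cortex interaction and dHPC acute, the tests where groups shared enough numbers. Without the block 0 of the 43 were also called there, where 1.99%, 0%, 0% and 0.0420% of all genes were called. The block thus changed no call among the 43. Same-numbered libraries come from different mice, and their deviations correlated at 0.081 and 0.107 in cortex acute, 0.029 and −0.207 in cortex chronic, and −0.018, −0.016 and 0.037 in dHPC acute, so the numbers do not pair them. Keeping the incomplete DS library gave 0 calls among the 43 in DS chronic and in the DS interaction with edgeR. The same held with DESeq2, a setting chosen after seeing the data. Without that library 0 of the 43 were also called, with shares of 0% and 0% in edgeR and 0.878% and 0.0190% in DESeq2. With 2 to 4 mice per group, a gene that is not called is not shown to be unaltered, and genes with few counts such as Hspb1 and Bag3 are less precise.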

Other observations

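Among the other pathway genes, the 10 ER lumen chaperones had a median log2 fold change of −0.20 in vHPC after acute ethanol, with 1 of 10 above 0, and all 10 were above 0 after chronic ethanol, with a median of 0.29. The remaining CCT subunit and prefoldin genes had 2 of 10 above 0 in vHPC acute (median −0.19). The 18 other HSP90 and HSP70 co-chaperones had a median of −0.05 in DS acute, the 21 other DNAJ genes 0.05, and the 8 other heat shock factors and HSF1 targets −0.08. Of the other small heat shock proteins, 3 could be tested there, and 1, Cryab, was called lower by edgeR (3.10% of all genes). DESeq2 called Fkbp5 higher in all 5 acute comparisons and in cortex, dHPC and VS chronic.

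Over all complete libraries, endothelial genes (8) summed to 132 to 215 CPM, microglial genes (10) to 288 to 473 CPM, thalamic neuron genes (6) to 46 to 853 CPM, myelin genes (10) to 1193 to 10474 CPM, and fibroblast and meningeal genes (8) to 32 to 317 CPM.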
